A study of Mus musculus with 18 samples.

Results

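Heat shock proteins and other chaperones were examined in Lin-Kit+ bone marrow cells of mice with a JAK2V617F-induced myeloproliferative neoplasm (MPN). Members were the genes whose array probe set carried a single symbol of the Hsp, DnaJ, Cct, Pdia or Fkbp series. The rule found 76 genes, with 1 probe set each, among 9636 genes with a single symbol and 10335 probe sets. They were 18 Hsp, 37 DnaJ, 6 Cct, 4 Pdia and 11 Fkbp genes. Hspa1a and Hspa1b, the classical heat-induced HSP70 genes, and Hspb1 and Hsp90ab1 were not among the probe sets used here.

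Bone marrow of Balb/c mice was taken after transplantation of marrow transduced with a retrovirus carrying JAK2V617F and GFP. It was kept in culture for 16 h with the cytokines SCF (100 ng/mL) and IL-3 (50 ng/mL), and then sorted. GFP+ cells are called JAK2V617F+ and GFP- cells of the same cultures JAK2V617F-, so the genotypes shared animals, medium and sort. Cultures were untreated or held a blocking antibody (BA) against TNF receptor 1 (TNFR1 BA) or 2 (TNFR2 BA) at 10 μg/mL. The methods describe 3 experiments with marrow of several mice each, without saying whether it was pooled, and each of the 6 groups has 3 arrays numbered 1 to 3. The number is read here as the experiment, which the labels do not state. The array of untreated JAK2V617F+ replicate 3 had failed quality standards, with a median log2 signal of 6.05 against 7.41 to 7.75 on the others, and 17 arrays were tested. It read low in general, so that its values are given as a description, and untreated JAK2V617F+ cells are represented by replicates 1 and 2 alone in every comparison that involves them. Values are deposited log2 signals, where 1 unit is a doubling. Levels of different probe sets cannot be compared, and p-values measure the spread between these arrays. With bulk RNA, fewer cells with a transcript and less transcript per cell cannot be told apart.

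Chaperones bind unfolded protein and keep it from aggregating. HSP70 proteins work in cycles with DnaJ proteins, which deliver clients and stimulate ATP hydrolysis. HSP90 proteins hold kinases and receptors in an active form, and JAK2 is a known client. In the cytosol the CCT ring folds actin and tubulin, and in mitochondria HSP60 (Hspd1) and its lid HSP10 (Hspe1) form a similar chamber. In the endoplasmic reticulum (ER), BiP (Hspa5), GRP94 (Hsp90b1) and protein disulfide isomerases (Pdia genes) fold secreted proteins. Fkbp genes encode prolyl isomerases, some of which bind HSP90 or immunosuppressive drugs. Heat shock factor 1 induces the cytosolic genes through heat shock elements, and ATF6 and XBP1 induce the ER genes through ER stress response elements.

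These control sequences are shown for some heat-inducible and ER genes named below, and their use in these cells was not measured. RefSeq promoters (GRCm38.p6, from 250 bases before to 50 after a start) were found for 65 of the 76 members, and were searched on both strands. A strict heat shock element, GAANNTTCNNGAA or its reverse complement, was present for Dnajb6, Hspd1, Hspe1 and Hsph1, which is 6.15% of members against 0.662% of 27025 genes. An ER stress response element, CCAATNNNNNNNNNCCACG or its reverse complement, was present for Dnajc3, Hsp90b1, Hspa5 and Pdia6, again 6.15% of members, against 0.137% of genes. Hspa8 and Hsp90aa1 were not among the promoters found, while Dnaja1 and Dnajb1 were searched and had no such heat shock element. Matches are in capitals in the sequences that follow, and coordinates are those of the whole stretch printed, flanks included. The Hsph1 match lay just after a transcription start, within chr5:149636280-149636308 on the minus strand. Hspd1 and Hspe1 are transcribed away from each other and share their match, of 2 overlapping copies. It lay within chr1:55088039-55088096 and is shown on the plus strand. The Hspa5 match was within chr2:34772005-34772063 on the plus strand, and the Pdia6 match within chr12:17266471-17266529 on the plus strand.
Hsph1: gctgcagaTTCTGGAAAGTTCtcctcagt
Hspe1 and Hspd1: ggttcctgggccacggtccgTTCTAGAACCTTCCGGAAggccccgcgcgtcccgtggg
Hspa5: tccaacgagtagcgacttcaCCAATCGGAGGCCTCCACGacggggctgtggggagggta
Pdia6: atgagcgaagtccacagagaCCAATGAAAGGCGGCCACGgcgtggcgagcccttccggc

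Of the 13 members with a mean signal of 12 or more, 12 had a 95% confidence interval of the genotype difference over the 3 treatments within 1 log2 unit of 0, as did 83.2% of the 494 probe sets of that signal. The exception was Fkbp2, an ER prolyl isomerase, at -0.70 (-1.24 to -0.15). Hsp90aa1, the inducible cytosolic HSP90, ranged from 13.36 to 13.74 (median 13.49) on 9 JAK2V617F- arrays and from 13.15 to 13.74 (median 13.57) on 8 JAK2V617F+ arrays. Its genotype difference over the 3 treatments was 0.0004 on the log2 scale (95% confidence interval -0.26 to 0.26). Hspd1 ranged from 13.51 to 14.09 (median 13.81) on JAK2V617F- arrays and from 13.60 to 14.07 (median 13.84) on JAK2V617F+ arrays. For both genes the ranges overlapped nearly completely.

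Several ER chaperones, named for their short intervals, also had differences near 0, while of all 27 measured ER chaperones 18 were lower and 9 higher in JAK2V617F+ cells. Hsp90b1, with a range of 0.58 over all 17 arrays, differed by -0.11 (-0.33 to 0.10) between genotypes. Hspa5 differed by -0.02 (-0.34 to 0.30), Pdia3 by -0.03 (-0.29 to 0.23) and Pdia6 by -0.05 (-0.62 to 0.52). Dnajb11, an ER cochaperone of BiP, differed by 0.13 (-0.22 to 0.49). Of the CCT subunits, Cct2 differed by 0.07 (-0.26 to 0.40), Cct8 by 0.15 (-0.27 to 0.57), Cct7 by 0.13 (-0.54 to 0.79) and Cct5 by -0.14 (-0.51 to 0.22). The other subunits had wider intervals, with Cct3 at 0.29 (-0.60 to 1.17) and Cct4 at -1.09 (-3.32 to 1.14). Intervals within 1 unit, that is short of a doubling or a halving, were found for 16 of the 76 members and for 9.91% of all probe sets. The excluded array read lower, with 12.84 for Hsp90aa1, 10.17 for Hspd1 and 11.44 for Hspa5, and with it in the fit the Hspd1 difference was -0.408.

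**Figure D1:**
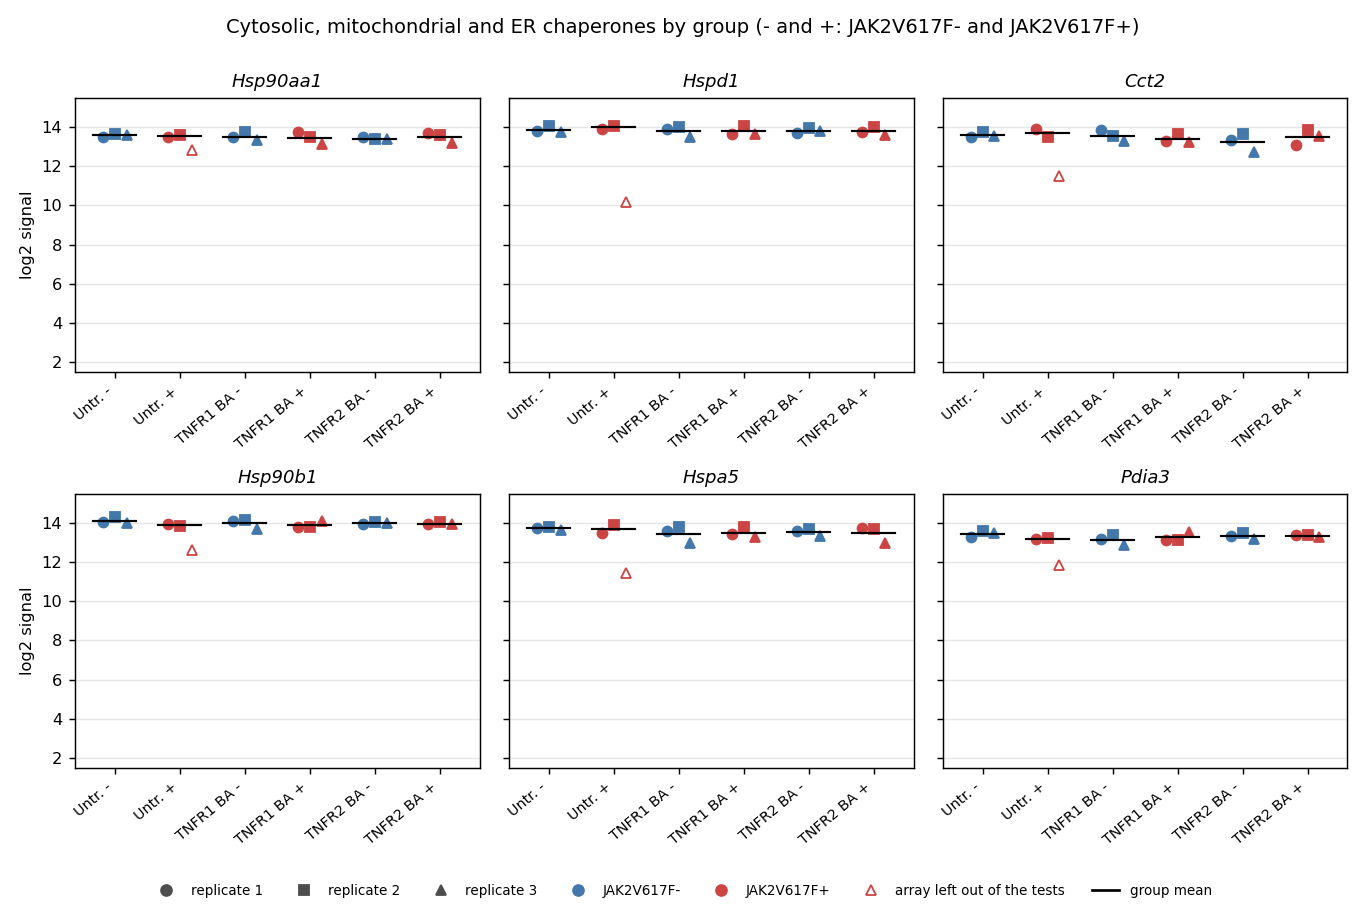
Log2 signals (vertical axis) of 6 chaperones in the 6 groups, with symbols for the replicate number, colours for the genotype and a line at the mean of the arrays tested. Apart from the open symbol of the array left out, all 6 genes stay between 12.7 and 14.3.

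After BA, 9 of the 13 bright members had intervals within 1 unit in JAK2V617F+ cells for either BA (40.3% and 46% of bright probe sets with TNFR1 BA and TNFR2 BA). In JAK2V617F- cells 11 had with TNFR1 BA and 12 with TNFR2 BA (59.7% and 66.6%). With TNFR1 BA, JAK2V617F+ cells differed from untreated JAK2V617F+ cells by -0.08 (95% interval -0.56 to 0.41) for Hsp90aa1, by -0.21 (-0.67 to 0.25) for Hspd1 and by -0.17 (-0.77 to 0.42) for Hspa5. With TNFR2 BA the differences were -0.04 (-0.52 to 0.45), -0.21 (-0.67 to 0.25) and -0.21 (-0.81 to 0.39). In JAK2V617F- cells TNFR1 BA gave -0.06 (-0.49 to 0.37), -0.07 (-0.48 to 0.34) and -0.28 (-0.81 to 0.26) for these genes. TNFR2 BA gave -0.17 (-0.60 to 0.26), -0.05 (-0.46 to 0.36) and -0.17 (-0.70 to 0.37). None of the intervals of these 3 genes reached a doubling or a halving.

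Other members could not be pinned down as well. The 13 members with a mean signal of 12 or more had a median SD within groups of 0.305, against 0.408 for the 494 probe sets of that signal. The 30 members from 8 to 12 had a median SD of 1.07, and the 33 members under 8 had 1.71. Of the 76 members, 22 (28.9%) ranged over more than 5 log2 units among the arrays of at least 1 group, as did 38.2% of probe sets. Hspa8, the constitutive HSP70, spread most among the members, with an SD of 3.66.

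**Figure D2:**
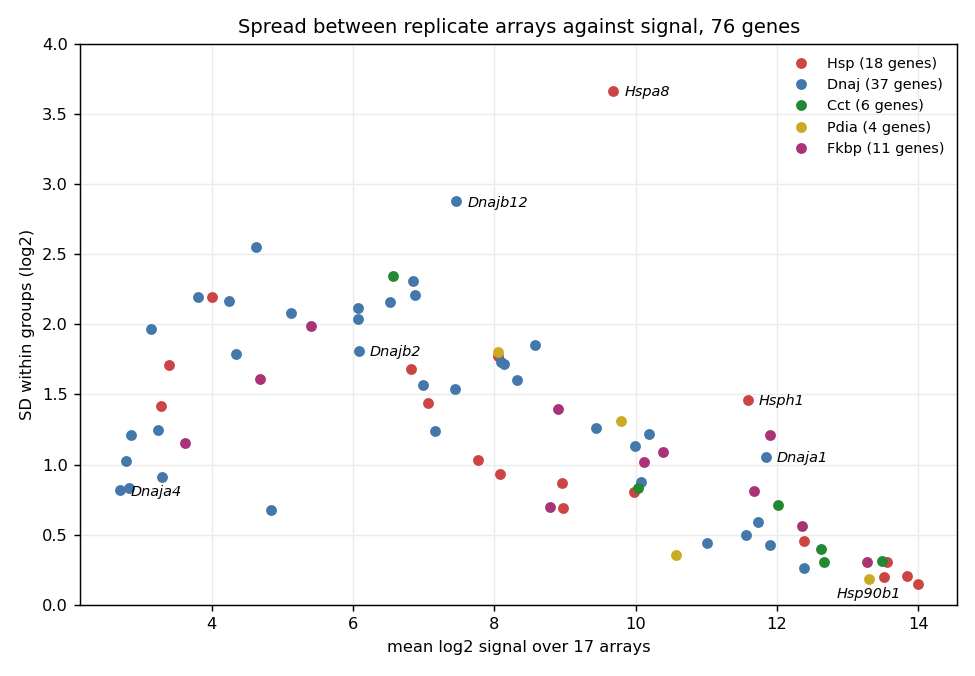
SD within groups against mean log2 signal over 17 arrays, a point for each of the 76 genes and a colour for each family. The SD declines towards bright genes, from 1.71 (median, means under 8) to 0.305 (means of 12 or more), and Hspa8 stands above all others.

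Comparing genotypes asks whether the mutant kinase goes with another chaperone level in cells that shared a culture. Over the 3 treatments 0 of 76 members passed an adjusted p of 0.05 (limma, Benjamini-Hochberg over all probe sets), where 0.358% of probe sets did. At an unadjusted p under 0.05 there were 5 members (6.58%) against a background of 10.3%. Dnajb2 and Hspa12b were higher in JAK2V617F+ cells (background 5.21% higher), and Fkbp2, Dnajc9 and Fkbp1b were lower (background 5.08% lower). The median difference over members was 0.04, beside 0.0001 over all probe sets, and 41 of 76 were higher in JAK2V617F+ cells, beside 50% of probe sets. By family, 24 of 37 DnaJ genes and 4 of 6 Cct genes were higher, while 8 of 11 Fkbp genes were lower, with a median of -0.44.

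Dnajb2, a DnaJ protein that carries ubiquitinated clients to the proteasome, came closest. On JAK2V617F- arrays it read 5.60, 2.51 and 2.69 untreated, 4.03, 6.30 and 4.0 with TNFR1 BA, and 5.04, 2.53 and 4.98 with TNFR2 BA. On JAK2V617F+ arrays it read 10.28 and 9.47 untreated, 7.19, 9.61 and 5.47 with TNFR1 BA, and 10.13, 8.51 and 5.06 with TNFR2 BA. Among the mutant arrays, 6 of 8 lay above all 9 others, and both replicate 3 arrays of treated mutant cells lay among them. The difference was 4.21 (SE 0.90, adjusted p = 0.052, limma), or 6.28 untreated, 2.65 with TNFR1 BA and 3.71 with TNFR2 BA. With the replicate number as a block it was 4.02 (SE 0.86) and passed (adjusted p = 0.0464). The exact permutation test within treatments gave p = 0.002 unadjusted. It takes the arrays as independent, as does the limma fit without the block. Both genotypes came from the same cultures, and the treatments are read as sharing 3 experiments, so this p can overstate the evidence. Over the alternatives the adjusted p ran from 0.0188 to 0.539. The excluded array read 5.34, among the JAK2V617F- arrays, and with it the difference was 3.71.

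Hspa12b, a distant HSP70 relative known from endothelium, was mostly near the lowest signal of 2.22. It read 5.36 and 8.67 on untreated JAK2V617F+ arrays, 6.67 on 1 TNFR1 BA array and 6.42 on 1 TNFR2 BA array, and at most 3.81 on every JAK2V617F- array. The difference was 2.37 (SE 0.78, adjusted p = 0.295). Fkbp2 differed by -0.70 (SE 0.26, adjusted p = 0.351), and Dnajc9, a DnaJ protein that binds histones, by -0.76 (SE 0.28, adjusted p = 0.356). Fkbp1b, whose protein binds calcium release channels, differed by -1.84 (SE 0.82, adjusted p = 0.449). Dnajb1, the HSP40 partner of heat-induced HSP70, was under 4 on 5 of 9 JAK2V617F- arrays and above 6 on all 8 JAK2V617F+ arrays. Its ranges overlapped, from 3.66 to 9.83 and from 6.04 to 10.12, and it differed by 2.14 (SE 1.04, adjusted p = 0.491).

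The other fixed members had overlapping ranges. Hsph1 differed by 0.72 (-0.53 to 1.97), Hspa9, the mitochondrial HSP70, by -0.19 (-1.12 to 0.74) and Hspe1 by -0.32 (-0.79 to 0.15). Hspa8 differed by -0.09 (-3.15 to 2.96), or by -0.74 in the fit with the replicate block (-2.41 to 0.92). The HSP90-binding immunophilins Fkbp4 and Fkbp5 differed by 0.54 (-0.50 to 1.58) and -0.66 (-1.69 to 0.37), and Pdia4 by 0.70 (-0.53 to 1.94).

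Of 59 measured chaperone pathway genes outside the rule 0 passed, with a median of -0.05. At an unadjusted p under 0.05 there were 3 of the 59, where 10.3% of probe sets were. Bag6, an HSP70 cofactor, was on the higher side. Ern1 (IRE1), a sensor of unfolded ER protein, and Sugt1, an HSP90 cochaperone, were on the lower. By list, 10 of 16 heat-inducible chaperones, 9 of 27 ER chaperones and 7 of 13 mitochondrial chaperones were higher in JAK2V617F+ cells, with medians of 0.08, -0.05 and 0.02. The heat-inducible list is cytosolic apart from Hspd1 and Hspe1, which are on the mitochondrial list as well.

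Markers of other cells moved with genotype as well. All 10 mast cell and basophil markers measured were higher in JAK2V617F+ cells, 6 of them past an adjusted p of 0.05, and their mean signal ran from 6.44 to 8.46 on JAK2V617F- and from 10.6 to 12.2 on JAK2V617F+ arrays. For 11 erythroid markers, of which 3 passed, it ran from 5.65 to 7.80 and from 8.44 to 10.7. Kit, which defines the sort, had medians of 7.83 and 7.47. The part of these cells in the Dnajb2 difference was not tested.

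**Figure D3:**
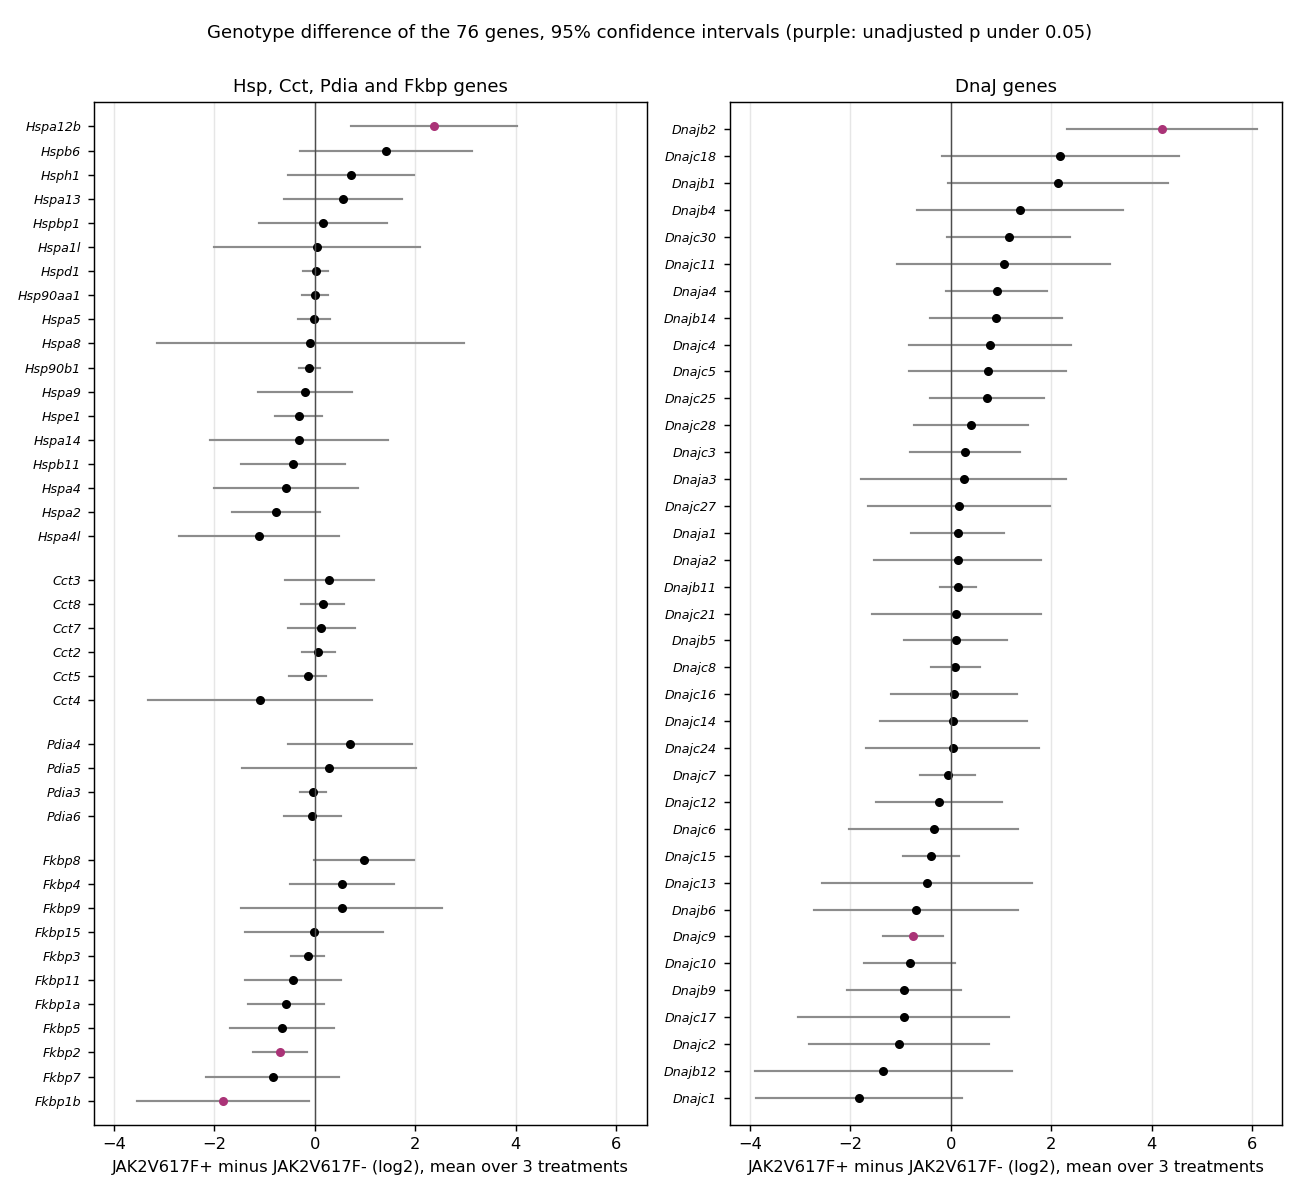
Difference JAK2V617F+ minus JAK2V617F- in log2 units (horizontal axis), averaged over the 3 treatments, with 95% confidence intervals for each of the 76 genes, sorted within family. Hsp90aa1, Hspd1, Hspa5 and Hsp90b1 have short intervals around 0, and Dnajb2 at 4.21 lies farthest from it.

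Within single treatments no member passed either. Untreated, 7 members had an unadjusted p under 0.05 (9.21%) against a background of 7.32%, and 0.0774% of probe sets passed the adjusted threshold. With TNFR1 BA there were 3 members (background 6.21%, adjusted 0.0871%), and with TNFR2 BA also 3 (background 5.63%, adjusted 0.0387%). With the replicate block the TNFR2 BA count was 6, but the background of that fit is not given here. Hspa4l, an HSP110 protein that recharges HSP70 with nucleotide, read 7.64, 8.29 and 8.0 on untreated JAK2V617F- arrays. It read 3.08 and 2.60 on the untreated JAK2V617F+ arrays. The difference was -5.14 (SE 1.41, adjusted p = 0.374). In TNFR1 BA cultures the DnaJ gene Dnajc25 read 2.22, 2.26 and 2.22 in JAK2V617F- and 5.94, 6.27 and 6.0 in JAK2V617F+ cells. It differed by 3.84 (SE 0.90, adjusted p = 0.288), with no overlap. Over the alternatives the adjusted p ran from 0.046 to 0.805. The lowest came without the TNFR2 BA JAK2V617F- array of replicate 1, at 5.94 the only other high array. That array is outside this comparison and enters it only through the shared spread.

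Blocking the TNF receptors asks which levels depend on TNF signalling in either genotype. In JAK2V617F+ cells TNFR1 BA left 0 members called (background 0.00968%) and 12 at an unadjusted p under 0.05, 15.8% of members against 6.78% of probe sets, 6 higher and 6 lower. All 12 share the 2 untreated JAK2V617F+ arrays as their reference, which hold no replicate 3. Hspa4l was higher by 4.70 (SE 1.41, adjusted p = 0.475), with 7.41, 6.56 and 8.64 on the TNFR1 BA arrays, and Dnajc25 by 3.83 (SE 1.0, adjusted p = 0.448). Hspa1l, a testis-enriched HSP70, was at 2.22 on all 3 TNFR1 BA arrays and at 8.03 and 7.14 untreated, a difference of -5.37 (SE 1.81, adjusted p = 0.556). The excluded untreated array also read 2.22, and with it the difference was -3.58. Cct3 differed by -2.19 (SE 0.78, adjusted p = 0.59). In the comparison of replicate numbers below, it differed by -1.11 in replicate 3 (adjusted p = 0.184, limma), and the part of this was not tested. Dnajc9 differed by 1.53 (SE 0.53, adjusted p = 0.58), but its untreated arrays were 11.65 and 9.34, and the difference was 0.373 without the latter (replicate 2) and 2.68 without the former (replicate 1).

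TNFR2 BA in JAK2V617F+ cells gave 0 called members (background 0.029%) and 5 at an unadjusted p under 0.05 (background 5.26%). Hspa4l read 8.53, 9.06 and 7.65, a difference of 5.58 from the same untreated arrays (SE 1.41, adjusted p = 0.672). All 6 BA-treated JAK2V617F+ arrays lay above the untreated ones. Of the 9 JAK2V617F- arrays 8 lay from 6.19 to 9.04, and TNFR1 BA replicate 1 lay at 3.06. The interaction of TNFR1 BA with genotype was 6.55 (SE 1.89, adjusted p = 0.849) and that of TNFR2 BA 5.54 (SE 1.89, adjusted p = 0.997). Fkbp8, a mitochondrial FKBP that binds HSP90 and BCL2, differed by -2.58 (SE 0.88, adjusted p = 0.792). The untreated arrays were 10.22 and 14.37, and all other tested arrays lay from 8.80 to 10.79. Fkbp1a, the FK506-binding FKBP12, differed by -1.57 (SE 0.67, adjusted p = 0.894).

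In JAK2V617F- cells no probe set at all passed (0%) for either BA. TNFR1 BA gave 4 members at an unadjusted p under 0.05 (background 3.73%), 1 higher and 3 lower. With the replicate block there were 7, but the background of that fit is not given here. Of 76 members 53 were lower and 23 higher, where 45% of probe sets were higher. The median was -0.31, beside -0.09 over all probe sets. The higher member was Dnajc2, with 6.01, 9.74 and 5.57 against 2.93, 2.22 and 5.33 untreated, without overlap. Fkbp1b differed by -4.40 (SE 1.36, adjusted p = 1). Its values were 7.76, 6.18 and 8.78 untreated, and 4.10, 2.22 and 3.21 with TNFR1 BA, without overlap. Hspa13, a microsomal HSP70, differed by -2.75 (SE 0.94, adjusted p = 1). TNFR2 BA gave 2 members (background 2.47%), Hspa1l at -3.69 and Cct3 at -1.66. Of the 6 CCT subunits, 6 were lower with TNFR1 BA (median -0.36) and 5 with TNFR2 BA (median -0.37) in JAK2V617F- cells, with 0 called. In JAK2V617F+ cells 5 were lower with either BA (medians of -0.34), but there the untreated group lacks replicate 3. Over replicates 1 and 2 alone the medians in JAK2V617F+ cells were -0.24 (TNFR1 BA) and -0.12 (TNFR2 BA). In JAK2V617F- cells 4 subunits were then lower and 2 higher with TNFR1 BA (median -0.33), and 5 were lower with TNFR2 BA (median -0.37). The comparisons within a genotype share their untreated arrays.

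Between the BAs, JAK2V617F+ cells had 1 member at an unadjusted p under 0.05 (background 4.37%). With the replicate block there were 5, but the background of that fit is not given here. Dnajc25, at 2.83, 2.26 and 2.33 with TNFR2 BA, was 3.60 lower than with TNFR1 BA (SE 0.90, adjusted p = 0.917). JAK2V617F- cells had 6 (background 3.7%), with Hspa13 at 2.63 and Dnajc6, an auxilin that uncoats clathrin vesicles, at 3.64. Interactions of genotype with TNFR1 BA gave 4 members (background 5.22%) and with TNFR2 BA 2 (background 3.83%), and 0 probe sets passed in each of these 4 comparisons.

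**Figure D4:**
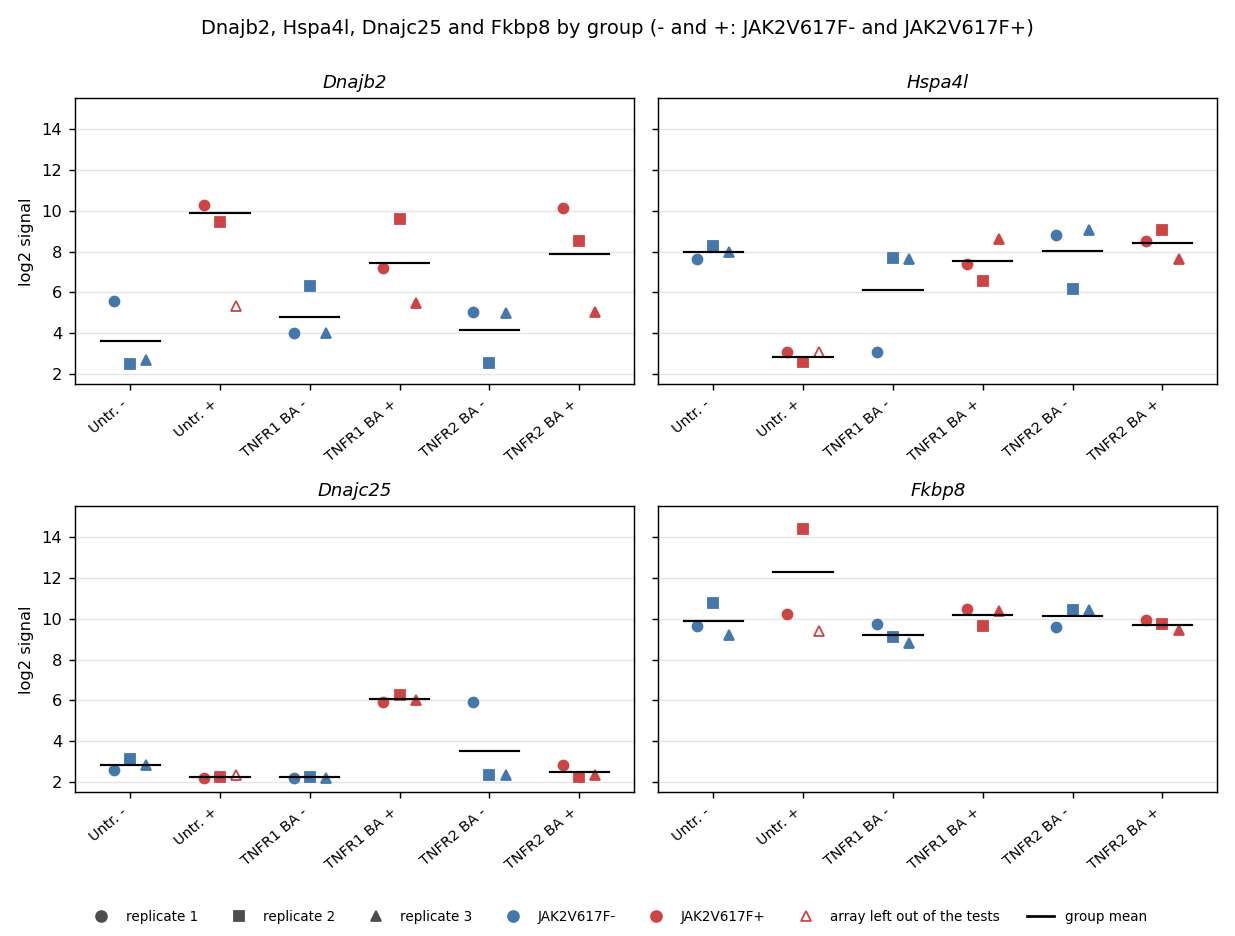
Log2 signals of 4 genes in the 6 groups, with symbols for replicate numbers, colours for genotype, an open symbol for the array left out and lines at group means. Hspa4l is at 3.08 and 2.60 on the tested untreated JAK2V617F+ arrays, Dnajc25 is high on all 3 TNFR1 BA JAK2V617F+ arrays, and the Fkbp8 mean of untreated JAK2V617F+ cells rests on 1 array at 14.37.

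Some members of the heat-inducible list, the constitutive Hspa8 among them, differed between replicate numbers. This comparison was chosen after the values of Hspa8, Hsph1 and Dnaja1 had been seen, and its model held the 6 group means. For any difference between numbers 2 members were called (background 1.2%), Hsph1 (adjusted p = 0.00859) and Hspa8 (adjusted p = 0.00995), and 13 had an unadjusted p under 0.05, where 12.8% of probe sets did. Replicate 3 against the others gave 3 called members (3.95%), all lower in replicate 3. The background was 2.02% of probe sets, or 0.948% counting only the lower ones. All members called here and for any difference are genes whose values prompted the comparison. Their shares can thus not be weighed against the background. At an unadjusted p under 0.05 there were 14 members (18.4%, background 14.5%), of which 13 were lower (background 7.67%).

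Hspa8 read 12.35, 11.12, 9.02, 10.62, 11.19 and 12.67 on replicate 1 arrays and 11.10, 10.82, 12.03, 11.02, 11.65 and 12.91 on replicate 2 arrays. On replicate 3 arrays it read 7.18 (untreated JAK2V617F-), 3.43 and 4.44 (TNFR1 BA, JAK2V617F- and JAK2V617F+), and 10.26 and 2.79 (TNFR2 BA, in the same order). All but 1 of the replicate 3 arrays lay below all the others. The difference was -5.84 (SE 0.87, adjusted p = 0.00409). It comes from 1 probe set, whose readings of 2.79 and 3.43 lay near the lowest signal of 2.22. Signals there have no detection call. Replicate 3 arrays did not read alike, with 10.26 and 2.79 for the 2 genotypes with TNFR2 BA. Hspa8 ranged over more than 5 log2 units within 4 groups, and 38.2% of probe sets did so in at least 1 group. The part of such scatter between arrays in the difference was not tested. The excluded replicate 3 array read 10.74, and with it the difference was -4.90 (adjusted p = 0.0136). Whether its probe set also reads near-identical HSP70 copies was not tested.

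Hsph1, an HSP110 nucleotide exchange factor with the heat shock element shown above, ranged from 9.10 to 10.48 on replicate 3 arrays, from 10.20 to 13.11 on replicate 1 and from 11.99 to 13.78 on replicate 2. Replicates 2 and 3 did not overlap. It was lower in replicate 3 by 2.15 (SE 0.35, adjusted p = 0.00608) and higher in replicate 2 by 1.90 (SE 0.33, adjusted p = 0.0114), the only member called for replicate 2 (background 0.6%). Dnaja1, an HSP40 partner of Hspa8, ranged from 9.66 to 11.79 on replicate 3 arrays and from 11.25 to 12.93 on the others, and was lower by 1.51 (SE 0.34, adjusted p = 0.0356). Of 24 alternatives Hsph1 passed in 23, Hspa8 in 22 and Dnaja1 in 9, but these fits reuse the values that prompted the comparison. Within JAK2V617F+ arrays alone Hspa8, Hsph1 and Dnaja1 differed by -8.19, -1.80 and -1.10, and within JAK2V617F- arrays by -4.27, -2.38 and -1.78, with only Hsph1 in JAK2V617F- cells past the threshold (adjusted p = 0.0386).

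Other members did not pass. Hspe1 differed by -0.59 (SE 0.20), Hspa5 by -0.45 (SE 0.12), Hspd1 by -0.24 (SE 0.10) and Hsp90aa1 by -0.25 (SE 0.12), with adjusted p of 0.171, 0.0728, 0.255 and 0.33. Cct7 differed by -0.93 (SE 0.27, adjusted p = 0.0906), and all 6 Cct genes were lower. Among the heat-inducible members, Dnajb1 was at -0.08, and Hspa4l at 0.87 (adjusted p = 0.69) and Dnajb4 at 0.75 (adjusted p = 0.817) were on the higher side. The single member with an unadjusted p under 0.05 that was higher was Dnajb12, at 2.81 (SE 1.21). Replicate 2 had 14 members at that level (background 11.7%), 11 of them higher, and replicate 1 had 3 (background 6.51%) with 0 called (0%).

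**Figure D5:**
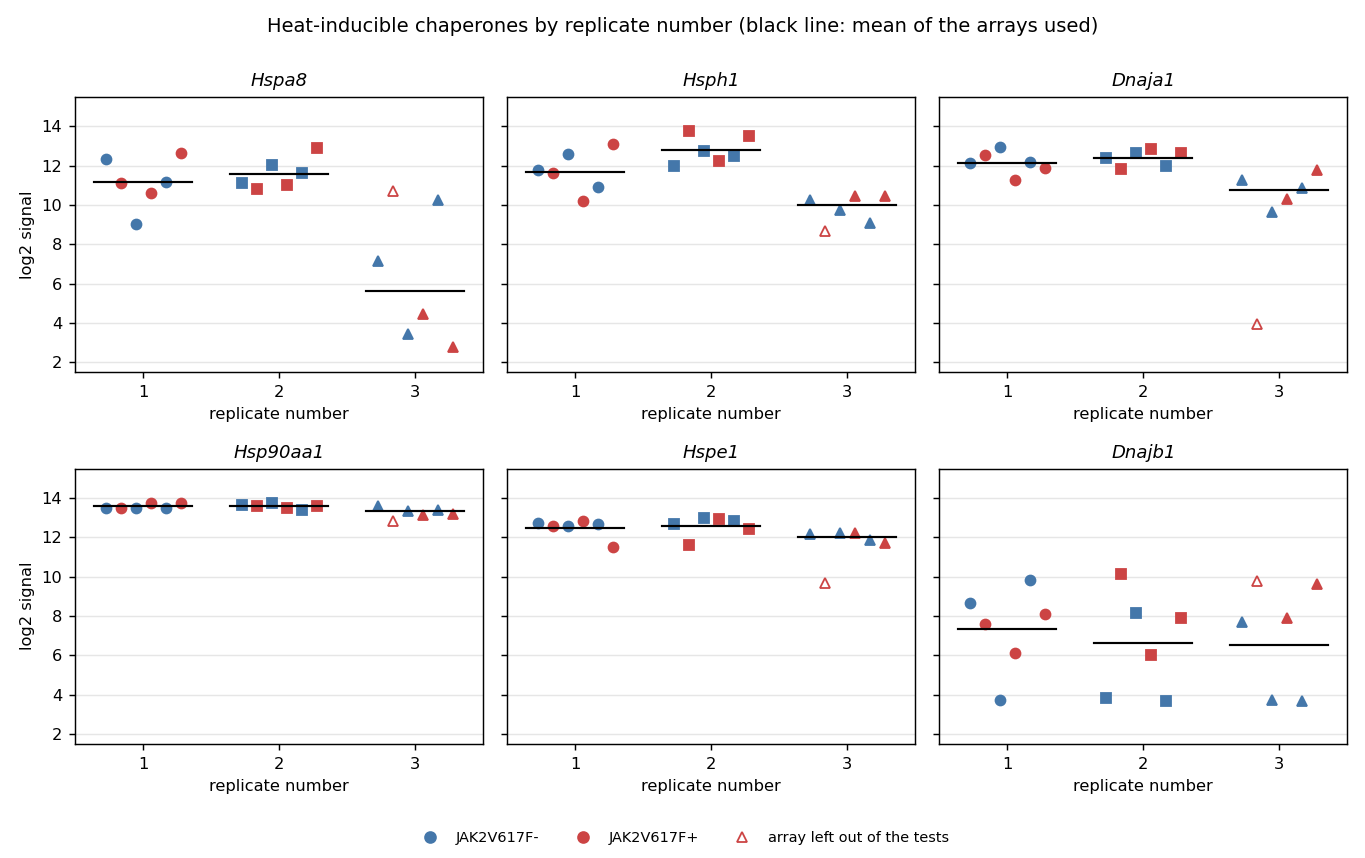
Log2 signals of 6 chaperones of the heat-inducible list by replicate number (horizontal axis), coloured by genotype. Hspa8, the constitutive HSP70, is on that list too. The mean of the tested arrays is a line, and the array left out is an open symbol. Hspa8, Hsph1 and Dnaja1 are lower in replicate 3 by 5.84, 2.15 and 1.51, while Dnajb1 varies within every number.

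A list of heat-inducible chaperones, cytosolic apart from the mitochondrial Hspd1 and Hspe1, held 16 measured genes. The constitutive Hspa8 is on it, while Hspa1a, Hspa1b and Hspb1 were not among the probe sets. Of these 10 were members, 8 of them lower in replicate 3 (Hspd1 and Hspe1 included), with the 3 above called. Of the 6 outside the rule 5 were lower and 1 was called, Ahsa1, an activator of the HSP90 ATPase, by -0.92 (adjusted p = 0.0391). Of 11 regulators of the unfolded protein response, none of them a member, 3 were called and all were higher in replicate 3, namely Atf4 by 0.93, Ddit3 (CHOP) by 4.0 and Trib3, a CHOP target, by 6.68 (adjusted p = 0.0114, 0.0109 and 0.00458). Of the ER chaperones, 12 of 17 members and 5 of 10 genes outside the rule were lower there, with 0 called. The members Hspa5, Hsp90b1 and Pdia3 differed by -0.45, -0.06 and -0.06. Outside the rule P4hb differed by 0.48, Herpud1 by 1.21 and Creld2 by -0.80. Granulocyte markers moved as well, with 8 of 8 higher in replicate 3 and 3 called, and mean signals from 13.7 to 13.9 on replicate 3, 13.2 to 13.8 on replicate 1 and 11.03 to 12.6 on replicate 2 arrays. Of 5 B cell markers all were lower and 1 was called. The part of these cells in the replicate differences was not tested, and what distinguished the experiments was not stated in any source read.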

How the data were processed

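Amplified total RNA was measured on Affymetrix mouse expression arrays. Values deposited by the authors are log2 signals, from Expression Console, with a value for each probe set. How they were normalized and how probe sets were chosen is not given in the sources read, there are no detection calls, and the number of arrays limits the precision. Probe sets were named from the platform annotation, updated by Entrez ID (0 symbols changed). Of 10335 probe sets, 9651 had a single symbol, 27 several and 657 none.

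Limma 3.58.1 in R 4.3.3 was fitted to the 6 group means of 17 arrays, with moderated variances that follow a trend, and p-values were adjusted by Benjamini-Hochberg over all probe sets at a threshold of 0.05. The genotype comparison averages 3 treatments. Exact permutations kept labels within treatments, took the arrays as independent and used 2 times the smaller tail. The smallest p they could give was 0.0005. Confidence intervals are at 95%. The code was tested on simulated data, and the comparison of replicate numbers was added after values had been seen.

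Members and gene lists were chosen with earlier results of these data known. Named were members past the threshold, those of smallest p with an unadjusted p under 0.05 (up to 8 per direction for genotype over treatments, 3 elsewhere) and 20 fixed chaperone genes where measured. Members named only in the replicate comparison or for a narrow interval were chosen after their values were seen. Replicate numbers were read as experiments from the methods. Deviations from group means correlated by 0.008, 0.071 and 0.144 within replicates 1, 2 and 3 and by -0.033 between different numbers in different groups. Alternatives were all 18 arrays, a replicate block, only the groups compared, quantile normalization, no dim probe sets, no variance trend, array weights, the mean of probe sets, the methods' paired t-test and leaving out arrays or replicate numbers.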

Additional observations from a re-analysis of the deposited data

Results flagged for a closer look

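An array was noted where its value stood apart from the other arrays of its genotype by Dixon's test. Among 68 sets of 34 named members there were 12 such arrays, where about 3.4 would be due to chance with normally distributed signals. Sets that lie mostly near 2.22, as for Dnaja4, Hspa12b and Dnajc12, are not so distributed, and a small departure is noted there. The 12 can thus not be weighed against the 3.4. Of the 12, 6 were on JAK2V617F- arrays with TNFR1 BA. Replicate 3 of that group read 5.99 for Pdia4 (next value 9.36), 8.98 for Fkbp4 (next 11.20) and 2.24 for Dnaja4, where all other JAK2V617F- arrays were at 2.22. Its replicate 1 read 6.97 for Dnajc12 (next 4.12) and 3.06 for Hspa4l (next 6.19), and replicate 2 read 9.74 for Dnajc2 (next 6.01). Untreated JAK2V617F+ replicate 2, 1 of only 2 arrays of its group, read 14.37 for Fkbp8 (next 10.49) and 9.34 for Dnajc9 (next 11.03), and replicate 1 read 5.06 for Dnajc12 (next 3.0). Untreated JAK2V617F- replicate 1 read 3.81 for Hspa12b (next 2.36), TNFR2 BA JAK2V617F- replicate 1 read 5.94 for Dnajc25 (next 3.11), and TNFR2 BA JAK2V617F+ replicate 3 read 11.61 for Cct5 (next 12.35).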

How the results depend on the processing

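No member passed the adjusted threshold in any comparison of genotype or BA with all 18 arrays, with only the groups compared, without a variance trend, with array weights or with the mean of probe sets. For genotype over treatments, 1 member (Dnajb2) was called with a replicate block, with quantile normalization and without the dimmest probe sets, and 0 to 2 when arrays or replicate numbers were left out. The members at an unadjusted p under 0.05 were then 8 with all 18 arrays, 3 without dim probe sets, 3 without a variance trend and 2 to 10 with arrays left out. The shares of all probe sets in these fits are not given here. Dnajb2 also passed without untreated JAK2V617F- replicate 1, TNFR1 BA JAK2V617F+ replicate 3 or TNFR2 BA JAK2V617F+ replicate 3. Leaving out arrays gave 0 to 2 called members for genotype untreated, 0 to 1 for genotype with TNFR1 BA, 0 to 3 for TNFR1 BA in JAK2V617F+ cells, 0 to 1 for TNFR2 BA there and 0 to 1 for the TNFR1 BA interaction. Apart from Dnajb2 and Dnajc25, these calls (Fkbp8, Dnajc9 and Dnajc27) came without untreated JAK2V617F+ replicate 1, where the lone replicate 2 is assumed to vary like the other groups. The methods' paired t-test gave 5 of 76 members at an unadjusted p under 0.05 over 8 pairs, beside 970 of 10335 probe sets. After adjustment 0 members passed, beside 11 probe sets. Beside Dnajb2, the replicate block changed no other call at the adjusted threshold.

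For the replicate numbers, the members called for any difference were 1 without a variance trend, 0 in JAK2V617F+ and 0 in JAK2V617F- arrays alone. Those for replicate 2 were 0 in each of these fits and 0 to 2 when arrays were left out, and those for replicate 3 were 0 in JAK2V617F+ and 1 in JAK2V617F- arrays alone, which have fewer arrays.

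Small genotype differences turned sign. With all 18 arrays, a replicate block and quantile normalization Hsp90aa1 differed by -0.0784, -0.0276 and -0.0117. With all 18 arrays and with the block, Hspd1 differed by -0.408 and -0.00913 and Dnaja1 by -0.778 and -0.0323. With arrays left out the ranges were -0.0664 to 0.0725 for Hsp90aa1, -0.102 to 0.0586 for Hspa5, -0.883 to 1.02 for Hspa8, -0.457 to 0.0799 for Hspa9, -0.0324 to 0.0598 for Hspd1, -0.214 to 0.407 for Dnaja1, -0.139 to 0.0685 for Pdia3 and -0.367 to 0.224 for Pdia6. Fkbp8 with TNFR1 BA in JAK2V617F+ cells ranged from -4.36 to 0.216, the latter without replicate 2. The causes were not tested. Signals near 2.22 have no detection call, so differences from them may be understated, and members that vary widely between arrays are resolved only for large differences.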
